A study of Mus musculus with 8 samples.

Results

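The 38 genes described here encode proteins that make ribosomes in the nucleolus: subunits and factors of RNA polymerase I, the protein cores of small nucleolar ribonucleoproteins (snoRNPs), and assembly factors of both ribosomal subunits. They were taken as a given list of nucleolar and RNA polymerase I genes, matched by symbol, and make up 38 of the 55401 genes in the tables. All 38 were abundant enough to be tested, among 13908 genes in all. The data are 8 bulk RNA-seq libraries of regenerating mouse liver (strain C57BL/6J). In the 4 shTbl1xr1 libraries a short hairpin RNA against Tbl1xr1, a subunit of the NCoR/SMRT corepressor complex, had been delivered by adeno-associated virus directed to hepatocytes. The 4 shNC libraries came from mice given a control hairpin in the same kind of virus. Mice of both groups underwent partial hepatectomy 4 weeks after the virus, and on day 2 of regeneration the liver was collected. Nothing in the sources used here gives the age or sex of the animals, the promoter that drives the hairpin, or whether each library is a separate animal. The p-values therefore rest on library-to-library spread alone, part of which may be technical.

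RNA polymerase I transcribes the long precursor of most ribosomal RNA from the ribosomal DNA repeats. In the nucleolus, box C/D snoRNPs guide ribose methylation of that precursor, box H/ACA snoRNPs guide the conversion of uridine to pseudouridine, and large complexes of helicases, GTPases and scaffold proteins fold and cut it into the small and the large subunit. Hepatocytes that leave quiescence after partial hepatectomy enlarge their nucleoli and make more ribosomes before they divide, and the transcription factor Myc is a well known activator of these genes.

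The shTbl1xr1 libraries were not alike in depth. They held 10895503, 10728566, 26976186 and 36720852 expected counts, against 25811743 to 27537230 in the shNC libraries, and the share of counts from mitochondrially encoded genes was 11.3% and 14.8% in shTbl1xr1 1 and 2, called the shallow libraries below, 4.52% and 6.26% in shTbl1xr1 3 and 4, and 4.96% to 7.34% in shNC. Both shallow libraries carry shTbl1xr1, so depth and group cannot be told apart there. The targeted gene Tbl1xr1 (ENSMUSG00000027630.13) was at 2.38, 2.07, 9.24 and 15.9 CPM (counts scaled by library total and by TMM in edgeR) in shTbl1xr1 1 to 4, against 27.2, 35.9, 33.7 and 34.6 CPM in shNC 1 to 4. All 4 shTbl1xr1 libraries lay below every shNC library, with the lowest levels in the shallow libraries. Depth and the level of Tbl1xr1 thus cannot be told apart within the shTbl1xr1 group. Fits without the shallow libraries also leave out the libraries with the least Tbl1xr1. The mean log2 level differed by -2.37 (two-sided exact permutation test, p = 0.0286, n = 4 each, the smallest p this design allows), while edgeR's quasi-likelihood test gave a log2 fold change of -2.07 (SE 0.54) with an adjusted p of 0.29 over all genes.

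Promoters of some of the genes named in the results below are shown first. No window was found for Tcof1, and those of Ubtf, which held none of the motifs searched, are not shown. Each window runs from 250 bases before to 50 bases after the RefSeq transcription start on GRCm38.p6, and is written 5′ to 3′ on the strand of the gene. Capitals mark 3 motifs searched on both strands: CACGTG, the E-box bound by Myc and Max, CCGGAAG, bound by ETS factors, and the site of nuclear respiratory factor NRF1. Wdr43 (chr17:71615965-71616264, plus strand) held the NRF1 motif and the E-box, Nolc1 (chr19:46075597-46075896, plus strand) and Nhp2 (chr11:51619523-51619822, plus strand) the ETS motif, Ddx10 (chr9:53248063-53248362, minus strand) the ETS and NRF1 motifs, and Nop58 (chr1:59684756-59685055, plus strand) none of these letters.
Wdr43: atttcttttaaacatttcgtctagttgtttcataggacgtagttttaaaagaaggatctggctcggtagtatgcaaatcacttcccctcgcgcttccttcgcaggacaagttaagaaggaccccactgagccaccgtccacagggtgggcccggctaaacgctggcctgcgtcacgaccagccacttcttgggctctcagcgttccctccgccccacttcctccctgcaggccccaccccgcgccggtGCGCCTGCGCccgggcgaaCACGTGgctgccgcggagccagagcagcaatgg
Nolc1: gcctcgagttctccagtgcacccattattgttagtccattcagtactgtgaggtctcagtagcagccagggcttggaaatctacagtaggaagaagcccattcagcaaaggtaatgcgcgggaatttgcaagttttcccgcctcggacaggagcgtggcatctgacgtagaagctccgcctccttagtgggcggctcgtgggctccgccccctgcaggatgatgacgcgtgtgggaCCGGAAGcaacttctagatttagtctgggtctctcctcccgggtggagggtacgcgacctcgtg
Ddx10: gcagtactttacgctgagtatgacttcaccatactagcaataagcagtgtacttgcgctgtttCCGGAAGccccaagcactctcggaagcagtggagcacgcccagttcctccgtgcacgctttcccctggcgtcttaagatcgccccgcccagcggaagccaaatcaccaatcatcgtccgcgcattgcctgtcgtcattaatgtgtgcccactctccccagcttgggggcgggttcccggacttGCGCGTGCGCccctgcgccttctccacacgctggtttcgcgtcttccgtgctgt
Nop58: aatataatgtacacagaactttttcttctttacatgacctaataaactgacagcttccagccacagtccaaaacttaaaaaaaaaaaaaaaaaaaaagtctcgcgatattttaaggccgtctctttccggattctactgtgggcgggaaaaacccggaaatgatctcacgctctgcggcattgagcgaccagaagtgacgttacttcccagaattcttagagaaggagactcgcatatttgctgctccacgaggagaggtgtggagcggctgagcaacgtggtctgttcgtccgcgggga
Nhp2: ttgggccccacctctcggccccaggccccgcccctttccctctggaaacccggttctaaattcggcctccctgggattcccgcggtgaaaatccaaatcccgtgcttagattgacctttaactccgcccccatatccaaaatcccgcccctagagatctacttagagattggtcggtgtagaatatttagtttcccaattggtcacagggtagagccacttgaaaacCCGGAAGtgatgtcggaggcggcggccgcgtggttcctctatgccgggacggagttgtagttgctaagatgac

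A promoter window was found for 32 of the 38 genes, and 15 of those (46.9%) held at least 1 of the motifs, with no overlap between matches of different motifs. That share was not taken over all tested genes, so it shows nothing particular to the 38 genes. The E-box was present in 6 of 32 (18.8%), namely Ltv1, Nop2, Pes1, Rrn3, Utp20 and Wdr43, against 11.6% of all tested genes with a window. The ETS motif was present in 10 of 32 (31.2%) against 19.5%, and the NRF1 motif in 5 of 32 (15.6%) against 11.2%. These shares describe letters in the windows and not binding. Genes with a motif stood on both sides of 0 in the comparison of shTbl1xr1 with shNC: Nolc1 and Nhp2, which both carry the ETS motif, had log2 fold changes of -0.52 and 0.88.

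Several of the genes also carry snoRNAs in their introns, so 1 transcript yields both a nucleolar protein and a guide RNA. By GENCODE M21, 6 of the 38 (15.8%) held 19 snoRNAs on their own strand, against 255 of 13897 tested genes (1.83%). The 6 hosts were Nop58, Nop56, Ncl, Gnl3, Wdr43 and Dkc1. A single snoRNA each is given from Nop58 (Snord11, chr1:59704790-59704873, plus strand), Nop56 (Snord110, chr2:130275506-130275573, plus strand) and Wdr43 (Snord92, chr17:71631281-71631365, plus strand), on GRCm38, because they carry the box C/D signature that the Nop56, Nop58 and fibrillarin proteins bind. Capitals mark the first TGATGA (C box) and the last CTGA (D box).
Snord11: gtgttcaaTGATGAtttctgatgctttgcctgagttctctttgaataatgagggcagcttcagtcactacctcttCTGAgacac
Snord110: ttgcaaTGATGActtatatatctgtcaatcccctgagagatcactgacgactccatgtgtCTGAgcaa
Snord92: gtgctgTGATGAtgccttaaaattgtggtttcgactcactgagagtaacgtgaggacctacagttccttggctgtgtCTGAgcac

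Of the 19 snoRNAs, 10 (52.6%) held TGATGA followed by CTGA, against 24.5% of 1521 annotated snoRNAs examined. Only these exact letters were searched, so a box with other letters was not counted. The 19 snoRNAs are 68 to 133 bases long. All 19 were listed at 0 counts and at an effective length of 0 in all 8 libraries, so these tables hold no measurement of the guide RNAs. The host transcripts were measured. All 6 hosts had a negative log2 fold change (median -0.11), against 142 negative and 113 positive among all 255 tested hosts (median -0.05). None of the 6 passed the test, and Dkc1, at -0.05 (SE 0.16), turned to 0.04 when 1 library was left out.

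No ribosome biogenesis gene passed the test between shTbl1xr1 and shNC. With edgeR's quasi-likelihood test and Benjamini-Hochberg adjustment over all genes at 0.05, 0 of the 38 were called in either direction, where 7 of 13908 genes (0.0503%) were called in all, and the smallest adjusted p among the 38 was 0.334. At an unadjusted p under 0.05, 2 of the 38 were higher in shTbl1xr1 (Nhp2 and Fbl) and 4 were lower (Nop58, Nolc1, Tcof1 and Ddx10), against backgrounds of 7.9% higher and 3.71% lower. DESeq2 called 0 of the 38 as well, with 276 genes (1.86%) called in all and a smallest adjusted p of 0.102 among the 38. Log2 fold changes ran from -0.64 (Ddx10) to 0.88 (Nhp2), with 22 negative, 15 positive, Polr1b at 0.00 and a median of -0.08, against a median of 0.01 over all tested genes. In a bulk sample, fewer cells of a type and less RNA per cell cannot be told apart.

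Every shTbl1xr1 library lay below the lowest shNC library for 6 genes, namely Nop58, Nolc1, Tcof1, Ddx10, Wdr43 and Ubtf. They are 15.8% of the 38, where 3.37% of all tested genes were separated in this direction. In the other direction 0 of the 38 were separated, against 3.88% of all tested genes. The separation is a description of ranks, and none of the 6 genes passed the test. Under scaling by library size alone, 8 of the 38 lay below (21.1%, background 6.99%) and 0 above (background 1.02%). When the shallow libraries were left out, 10 of the 38 lay below every shNC library (26.3%, background 10.3%) and 2 lay above (5.26%, background 10.4%). The 10 were Nop58, Nop10, Nolc1, Wdr43, Nop16, Polr1e, Ubtf, Ddx10, Tcof1 and Ltv1, and the 2 were Pes1 and Utp20. When shTbl1xr1 3 and 4 were left out instead, 11 lay below (28.9%, background 32.8%) and 11 above (28.9%, background 28.7%).

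**Figure D1:**
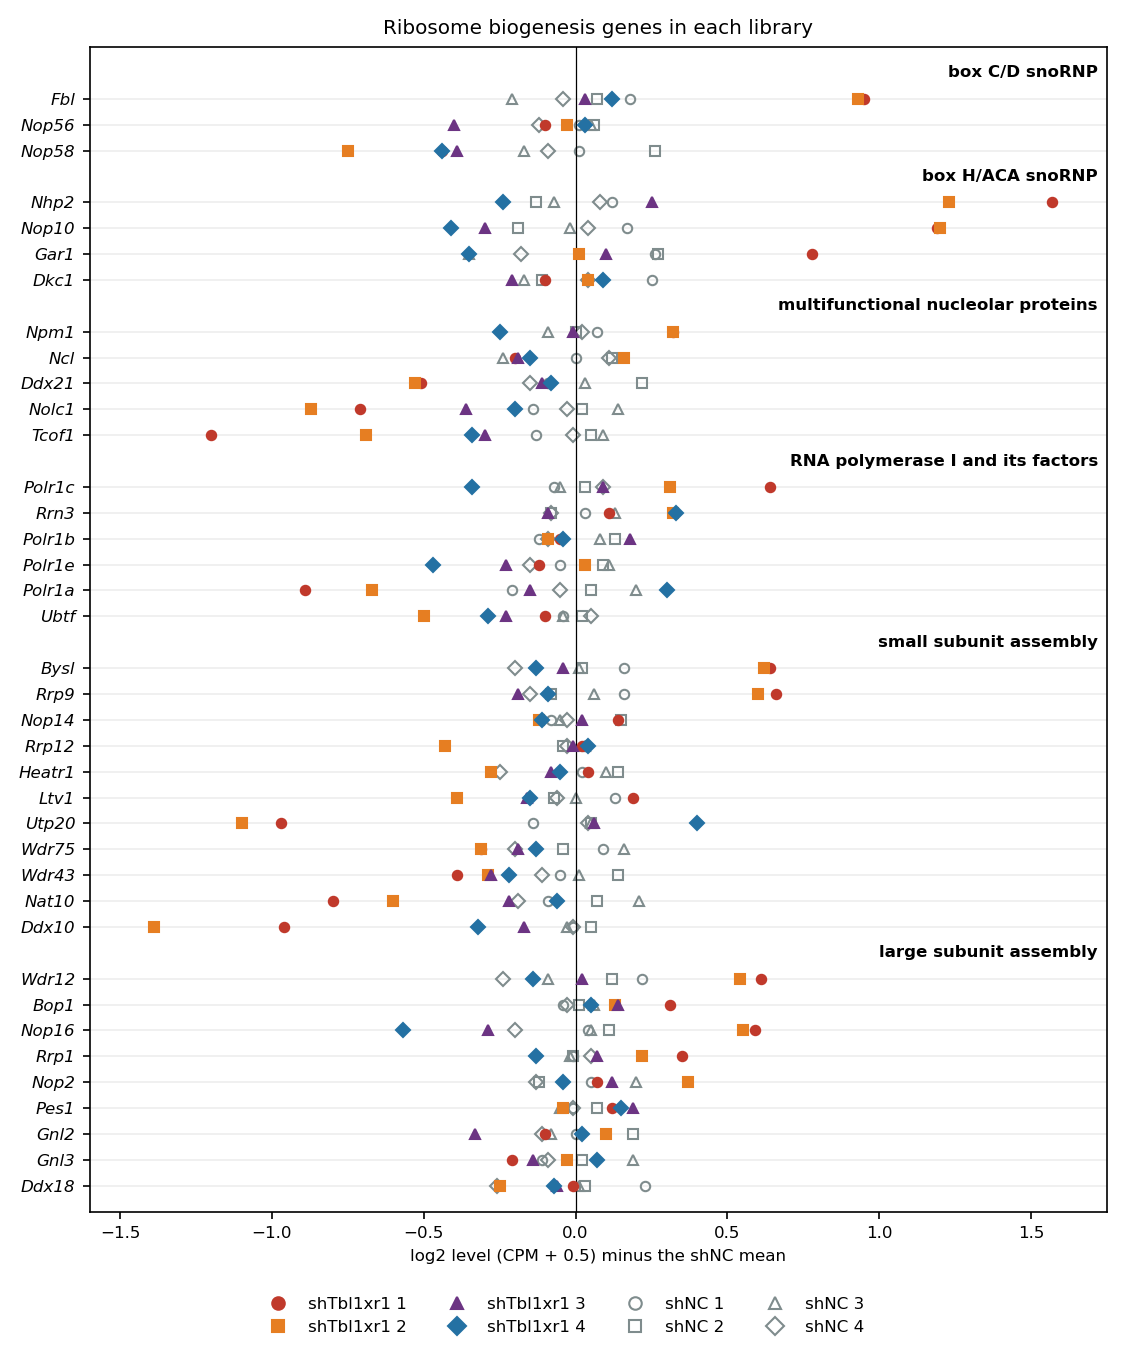
Log2 level of each of the 38 genes in each library, as the difference of log2(CPM + 0.5) from the mean of the 4 shNC libraries. Each gene has a row with a point for each library, and genes are grouped by role. The shallow libraries shTbl1xr1 1 and 2 hold the widest departures in both directions, -1.39 to 1.57, against -0.57 to 0.40 in shTbl1xr1 3 and 4 and -0.35 to 0.27 in shNC.

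The log2 levels of single libraries show how the shTbl1xr1 libraries differed among themselves. Of the 38 genes, 12, 15, 17 and 15 lay below the whole shNC range in shTbl1xr1 1 to 4, and 14, 14, 7 and 5 lay above it. Such counts were not taken over all tested genes, so these numbers compare libraries and show nothing particular to the 38 genes. The number below was similar in the 4 libraries, while most values above the shNC range came from the shallow libraries. Summed over the 38 genes, the level was 1260, 1210, 1010 and 990 CPM in shTbl1xr1 1 to 4, against 1090, 1110, 1060 and 1050 CPM in shNC 1 to 4. On the deposited TPM scale, which divides by effective transcript length, the sums were 595, 489, 813 and 761 in shTbl1xr1 and 764, 839, 853 and 831 in shNC. The shallow libraries therefore had the highest sums in CPM and the lowest in TPM. The 2 scales differ in more than length, since CPM is also scaled by TMM and TPM is not. The TMM factors were 0.734 and 0.675 in shTbl1xr1 1 and 2, against 1.08 to 1.16 in the other libraries. Smaller factors raise the CPM of a library.

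The 3 box C/D protein genes had fold changes on both sides of 0, and none passed the test. Nop58 (ENSMUSG00000026020.9, chr1:59684971-59719044 on GRCm38), one of the paired scaffold proteins of the box C/D snoRNP, was at 22, 17.7, 22.8 and 22.1 CPM in shTbl1xr1 1 to 4, against 30.3, 35.9, 26.6 and 28.1 CPM in shNC 1 to 4. The groups did not overlap, and shTbl1xr1 2 was the lowest of the 8 libraries. Its mean was 21.1 ± 2.34 CPM in shTbl1xr1 and 30.2 ± 4.10 CPM in shNC (SD, n = 4 each). The log2 fold change was -0.51 (SE 0.16), with the smallest adjusted p among the 38, 0.334 in edgeR's quasi-likelihood test, and it was -0.43 without the shallow libraries. In TPM Nop58 was at 10.1, 7.03, 28.2 and 24.5 in shTbl1xr1 1 to 4 and at 32.3 to 38.7 in shNC. The groups were apart there as well, but the TPM sum of the 38 genes was itself lowest in the shallow libraries. Nop56, the other scaffold, averaged 34.3 ± 4.40 CPM in shTbl1xr1 and 37.3 ± 2.13 CPM in shNC, and its groups overlapped.

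Fbl (ENSMUSG00000046865.7, chr7:28169710-28179269), which encodes fibrillarin, the ribose methyltransferase of the same particle, was at 64.8, 63.9, 34.1 and 36.3 CPM in shTbl1xr1 1 to 4, against 37.8, 35.1, 28.7 and 32.4 CPM in shNC 1 to 4. Only the shallow libraries lay above the shNC range. The log2 fold change was 0.57 (SE 0.24, adjusted p = 0.419 in edgeR's quasi-likelihood test) and 0.07 without the shallow libraries. In TPM the Fbl means were 44.7 ± 6.27 in shTbl1xr1 and 45.0 ± 2.72 in shNC.

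Of the 4 box H/ACA protein genes, Nhp2 and Nop10 were also highest in the shallow libraries. Nhp2 (ENSMUSG00000001056.3, chr11:51619735-51623714), an RNA-binding core protein of the pseudouridylation particle, was at 126, 99.6, 50 and 35.7 CPM in shTbl1xr1 1 to 4, against 45.9, 38.5, 40.0 and 44.5 CPM in shNC 1 to 4. Its fold change was the highest of the 38 (log2 0.88, SE 0.35, adjusted p = 0.412), yet shTbl1xr1 4 lay below every shNC library. The log2 fold change was 0.54 without shTbl1xr1 1 and 0.02 without both shallow libraries. An exon of Nhp2 overlaps Rmnd5b on the other strand. The strand setting of the counts is not given in the sources used here, so whether reads of the pair were told apart is not known. In TPM Nhp2 was at 99.1, 69.6, 84.4 and 59.3 in shTbl1xr1 and at 67.4, 61.9, 69.8 and 73.3 in shNC. Nop10, the smallest protein of the particle, was at 104, 104, 36.6 and 33.7 CPM in shTbl1xr1 1 to 4, against 39.5 to 50.9 CPM in shNC. It was thus above the shNC range in the shallow libraries and below it in the deeper ones, and its log2 fold change was 0.61 (SE 0.38) over all libraries and -0.37 without the shallow ones, and 0.35 without either shallow library alone. Gar1 (0.17, SE 0.27) and Dkc1, the pseudouridine synthase itself (-0.05, SE 0.16), overlapped between groups. Over the 4 genes, the median log2 difference from shNC was 0.99, 0.62, -0.05 and -0.29 in shTbl1xr1 1 to 4, against 0.21, -0.12, -0.12 and 0.04 in shNC 1 to 4.

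Among 5 multifunctional nucleolar proteins, 4 log2 fold changes were negative (median -0.30). Npm1, the exception, was at -0.23 under scaling by library size alone, where the median of all tested genes was -0.27, and Ncl was at 0.04 with the length trend removed. Nolc1 (ENSMUSG00000015176.11, chr19:46075863-46085530), a phosphoprotein that chaperones snoRNPs through the nucleolus, was at 23.0, 20.6, 29.5 and 33.0 CPM in shTbl1xr1 1 to 4, against 34.6, 38.7, 42.1 and 37.3 CPM in shNC 1 to 4. Tcof1 (ENSMUSG00000024613.16), which encodes treacle, a scaffold that links RNA polymerase I to rRNA processing, was at 4.88, 7.18, 9.56 and 9.32 CPM in shTbl1xr1 1 to 4, against 10.8, 12.3, 12.7 and 11.8 CPM in shNC 1 to 4. Neither gene overlapped between groups, and in both the shallow libraries were lowest. Nolc1 was at 69.5% of its shNC mean (log2 fold change -0.52, SE 0.18, adjusted p = 0.373) and Tcof1 at 65.0% (-0.60, SE 0.22, adjusted p = 0.394). Without the shallow libraries the log2 fold changes were -0.29 and -0.34.

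Ddx21, an RNA helicase that binds RNA polymerase I transcripts, was at 29.9, 29.4, 39.6 and 40.5 CPM in shTbl1xr1 1 to 4 and at 38.5 to 49.8 CPM in shNC, a log2 fold change of -0.30 (SE 0.17). Its deeper libraries lay within the shNC range. Ncl, which encodes nucleolin, averaged 104 ± 13.3 CPM in shTbl1xr1 and 111 ± 12.5 CPM in shNC. Npm1, which encodes nucleophosmin, a histone and ribosome chaperone, was at 111, 111, 88.4 and 74.9 CPM in shTbl1xr1 1 to 4, against 93.6, 88.9, 83.9 and 90.5 CPM in shNC 1 to 4. The shallow libraries were the 2 highest for Npm1, and its log2 fold change was 0.11 (SE 0.17).

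**Figure D2:**
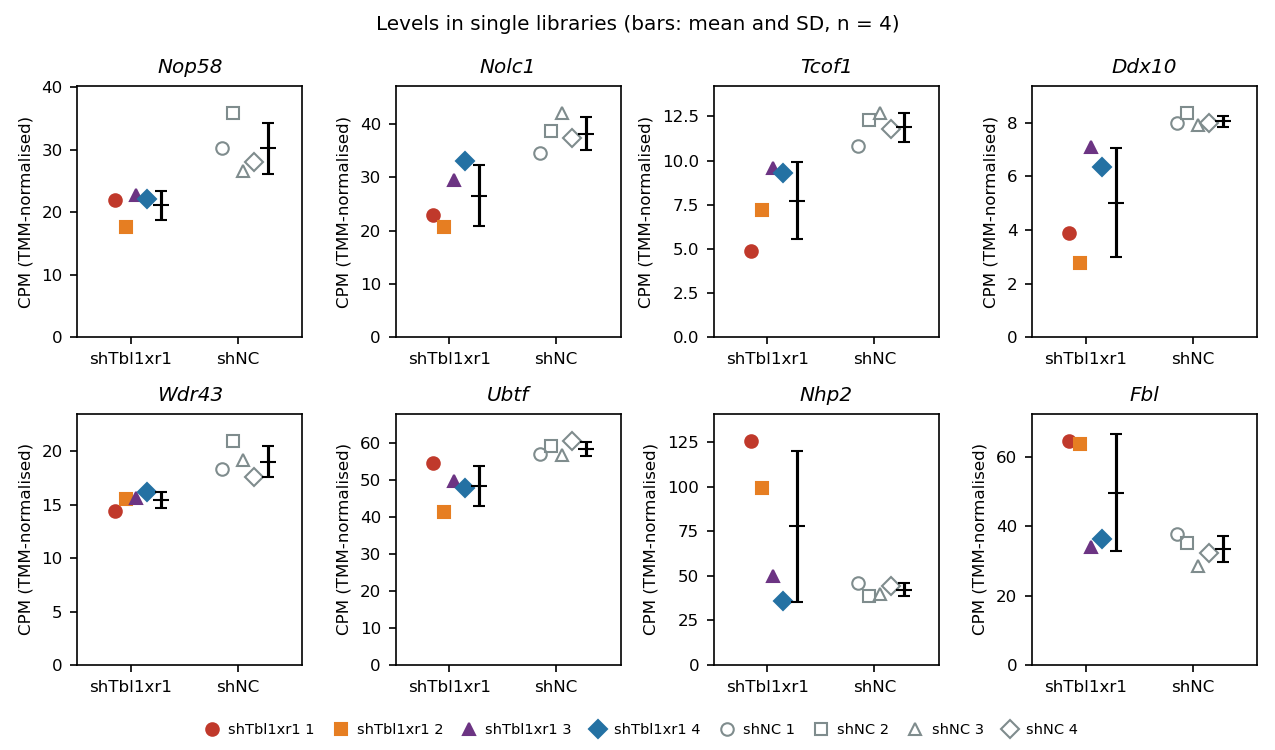
CPM of 8 of the genes in each library, with shTbl1xr1 left of shNC in each panel, points for libraries and bars for the mean and SD of 4 libraries. For Nop58, Nolc1, Tcof1, Ddx10, Wdr43 and Ubtf all shTbl1xr1 points lie below the shNC points, and for Nhp2 and Fbl the shallow shTbl1xr1 libraries (126 and 99.6 CPM, and 64.8 and 63.9 CPM) lie above all others.

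Within RNA polymerase I and its factors, 3 of 6 log2 fold changes were negative, 2 were positive and that of Polr1b was 0.00, with a median of -0.11. Ubtf (ENSMUSG00000020923.17, chr11:102304560-102319742), which encodes the HMG-box protein that keeps ribosomal DNA repeats in an open, active state, was at 54.4, 41.2, 49.6 and 47.7 CPM in shTbl1xr1 1 to 4, against 56.8, 59.0, 56.7 and 60.5 CPM in shNC 1 to 4. The groups were apart by a small margin, since shTbl1xr1 1 lay close to the lowest shNC library. Its log2 fold change was -0.27 (SE 0.14, adjusted p = 0.443), and after removal of the trend with transcript length its groups overlapped. The catalytic subunit gene Polr1a was at 11, 13, 18.8 and 25.9 CPM in shTbl1xr1 1 to 4, against 18 to 24.2 CPM in shNC (-0.27, SE 0.26). Polr1b, the other large subunit, averaged 14.2 ± 1.27 CPM in shTbl1xr1 and 14.2 ± 1.26 CPM in shNC. Rrn3, the initiation factor that brings the polymerase to the promoter, averaged 24.6 ± 3.38 CPM in shTbl1xr1 and 21.7 ± 1.53 CPM in shNC (0.18, SE 0.15). The log2 fold changes of Polr1c and Polr1e, further subunits, were 0.21 (SE 0.20) and -0.22 (SE 0.18).

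Among small subunit assembly factors, 9 of 11 log2 fold changes were negative, with a median of -0.12, and none passed the test. With the trend of level with transcript length removed, 6 of 11 were negative. Under scaling by library size alone all 11 were, where the median of all tested genes was itself -0.27. Ddx10 (ENSMUSG00000053289.8, chr9:53098635-53248053), an RNA helicase of early small subunit precursors, was at 3.88, 2.76, 7.09 and 6.35 CPM in shTbl1xr1 1 to 4, against 7.97, 8.36, 7.90 and 7.97 CPM in shNC 1 to 4. It had the lowest fold change of the 38 (log2 -0.64, SE 0.27, adjusted p = 0.422), with the shallow libraries far below the deeper ones and all 4 below shNC. Without the shallow libraries the value was -0.26. Wdr43 (ENSMUSG00000041057.10, chr17:71615895-71659031), a scaffold protein of the early small subunit processome, was at 14.4, 15.5, 15.6 and 16.2 CPM in shTbl1xr1 1 to 4, against 18.3, 21.0, 19.2 and 17.6 CPM in shNC 1 to 4. Here the shallow and deeper libraries gave nearly the same level, and the mean of 15.4 ± 0.744 CPM in shTbl1xr1 was 81.1% of the mean of 19.0 ± 1.48 CPM in shNC (log2 fold change -0.30, SE 0.13, adjusted p = 0.426). An exon of Wdr43 overlaps a gene on the other strand, CT010429.2, with the same limit as for Nhp2. Among the genes given below, that limit also holds for Nop14, Heatr1, Bysl, Rrp9, Bop1, Pes1, Wdr12, Gnl2 and Gnl3, and among those above for Nop56, Dkc1 and Polr1a.

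Nat10, which acetylates cytidines of the small subunit rRNA, was at 10.8, 12.4, 16.4 and 18.3 CPM in shTbl1xr1 1 to 4, against 18, 20.2, 22.1 and 16.7 CPM in shNC 1 to 4. Its groups overlapped through shTbl1xr1 4 alone, and its log2 fold change was -0.40 (SE 0.20, adjusted p = 0.437). Wdr75, a partner of Wdr43, averaged 9.80 ± 0.650 CPM in shTbl1xr1 and 11.6 ± 1.32 CPM in shNC (-0.24, SE 0.15). Utp20, a very large scaffold, was at 9.14 and 8.29 CPM in the shallow libraries but at 19.1 and 24.3 CPM in shTbl1xr1 3 and 4, against 16.6 to 19.0 CPM in shNC. The sign of its fold change accordingly depended on the libraries, at -0.24 (SE 0.32) over all and 0.24 without the shallow ones. Heatr1, Ltv1, Rrp12 and Nop14 had log2 fold changes between -0.12 and -0.02. Bysl (0.31, SE 0.21) and Rrp9 (0.28, SE 0.24), a box C/D snoRNP protein, were the 2 small subunit factors above 0, and both were higher in the shallow libraries than in any other.

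Large subunit assembly factors had 6 of 9 log2 fold changes above 0 and a median of 0.13, but 3 of 9 were above 0 without the shallow libraries. Under scaling by library size alone 0 of 9 were above 0. Their median there was -0.19, where the median of all tested genes was itself -0.27. Bop1, Pes1 and Wdr12 form the PeBoW complex, which is needed to process the large subunit precursor. Bop1 was at 39.8, 35.1, 35.2 and 33.2 CPM in shTbl1xr1 1 to 4, against 31.0, 32.1, 33.4 and 31.4 CPM in shNC 1 to 4 (0.16, SE 0.13). Pes1 was at 35.0, 31.2, 36.7 and 35.8 CPM in shTbl1xr1 and at 31.1 to 33.8 CPM in shNC (0.11, SE 0.13). Wdr12 was at 28.5, 27.2, 18.8 and 16.8 CPM in shTbl1xr1 and at 15.6 to 21.6 CPM in shNC (0.28, SE 0.21). The 3 subunits overlapped between groups, and their fold changes were within a log2 range of 0.11 to 0.28. Rrp1, Nop2 and Nop16 had log2 fold changes of 0.14, 0.13 and 0.15. The nucleolar GTPases Gnl2 and Gnl3 (nucleostemin) were at -0.07 and -0.08 and the helicase Ddx18 at -0.11, with SEs of 0.14 to 0.15.

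Levels between genes were compared per length, on the deposited TPM scale. Npm1 was highest in shNC, with 57.4, 53.1, 108 and 93.3 TPM in shTbl1xr1 1 to 4 and 91.0, 105, 112 and 108 TPM in shNC 1 to 4. In shTbl1xr1 Nhp2 (78.1 ± 17.4 TPM) and Npm1 (77.9 ± 26.8 TPM) did not differ beyond their spread. Nhp2 (68.1 ± 4.79 TPM), Nop10 (66.6 ± 5.69 TPM), Fbl (45.0 ± 2.72 TPM), Nop16 (44.9 ± 7.16 TPM), Rrp1 (43.6 ± 3.58 TPM) and Ncl (42.1 ± 4.01 TPM) followed Npm1 in shNC, with no step beyond the spread within the first pair or among the last 4. At the low end Ddx10 was at 0.86, 0.54, 3.29 and 2.93 TPM in shTbl1xr1 1 to 4 and at 3.21, 3.73, 3.75 and 3.63 TPM in shNC 1 to 4. Tcof1, at 1.94 ± 1.28 TPM in shTbl1xr1 and 3.68 ± 0.494 TPM in shNC, and Rrp12 and Utp20, at 3.78 ± 0.261 and 3.84 ± 0.370 TPM in shNC, did not differ from Ddx10 beyond the spread.

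**Figure D3:**
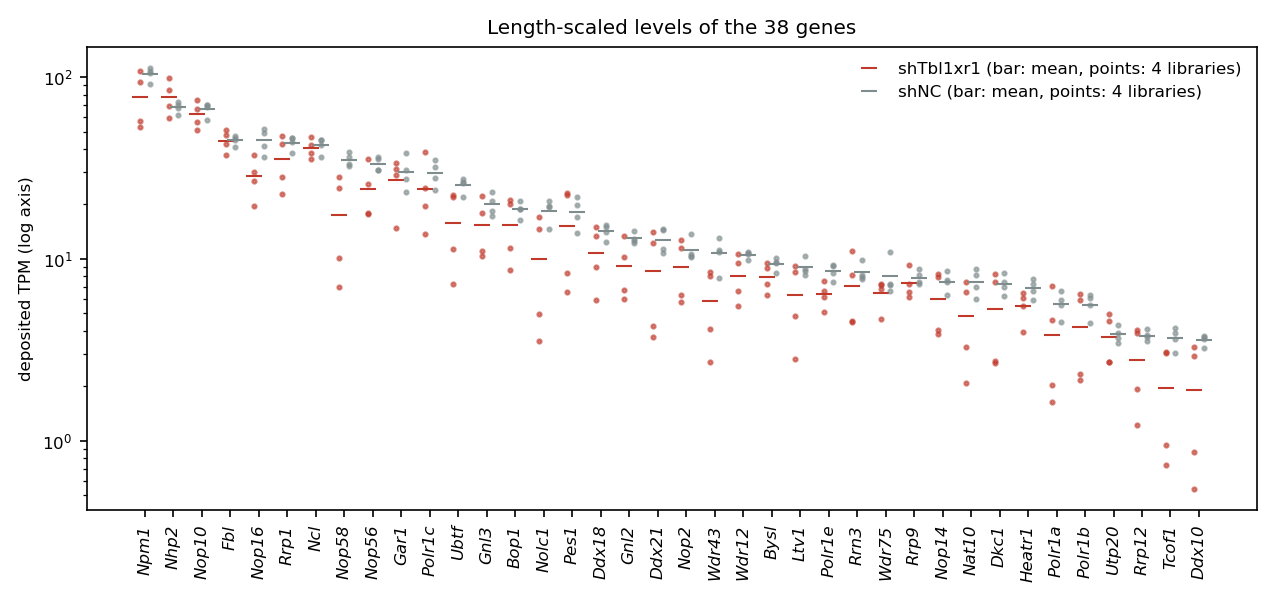
Deposited TPM of the 38 genes on a log axis, with points for libraries and shTbl1xr1 left of shNC for each gene. Levels in shNC run from a mean of 104 TPM for Npm1 to 3.58 TPM for Ddx10, and for Ddx10 the shallow libraries lie lowest, at 0.86 and 0.54 TPM.

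Fold changes of the 38 genes followed transcript length. Across the 38 genes, Spearman's rho between log2 fold change and the deposited length was -0.48, and across all 13908 tested genes it was -0.38, over genes that share the same libraries and are not independent. The 12 shortest genes (603 to 1653 bases) had a median log2 fold change of 0.16. It was 0.28 for all tested genes of 1653 bases or less, which include genes shorter than 603 bases. The 12 longest (3187 to 5370 bases) had a median of -0.17, against -0.14 for all tested genes of 3187 bases or more. With only the shallow libraries against shNC, rho was -0.61 for the 38 genes and -0.51 for all genes. With only shTbl1xr1 3 and 4 against shNC, it was 0.26 and 0.24. In single libraries, rho between length and the difference of the 38 genes from the shNC mean was -0.58, -0.55, 0 and 0.42 in shTbl1xr1 1 to 4. In shNC 1 to 4 it was -0.49, 0.14, 0.4 and -0.02, so a relation with length was not limited to the shallow libraries. The median difference of the 12 short genes from shNC was 0.62, 0.31, -0.16 and -0.29 in shTbl1xr1 1 to 4, against -0.09 to 0.05 in shNC. For the 12 long genes it was -0.15, -0.46, -0.10 and -0.06 in shTbl1xr1, against -0.06 to 0.06 in shNC.

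**Figure D4:**
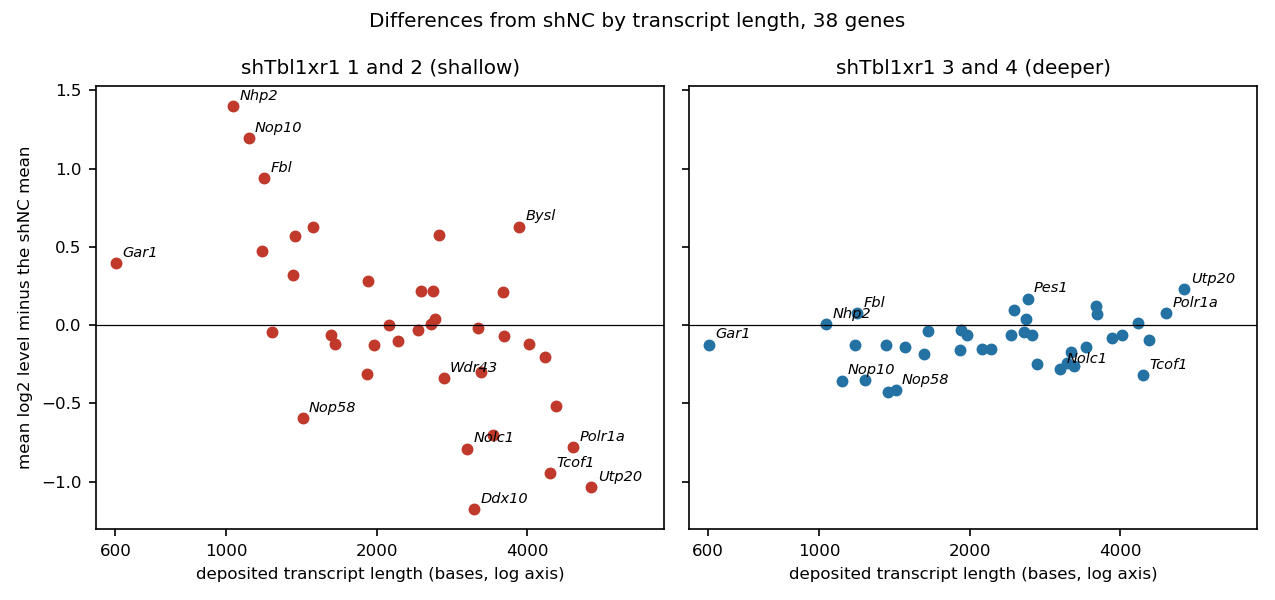
Mean log2 difference from shNC of the 38 genes against transcript length in bases, with the shallow libraries shTbl1xr1 1 and 2 on the left and the deeper libraries shTbl1xr1 3 and 4 on the right. Short genes lie above long genes on the left (rho -0.61 in the comparison of these libraries with shNC) and not on the right (rho 0.26).

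In 1 alternative, chosen after the data were seen, the trend of level with length was removed within each library. Under it 6 of the 38 genes lay below every shNC library (background 3.75%), with Nop58, Nolc1, Tcof1, Ddx10 and Wdr43 among them and Polr1e in place of Ubtf, and 1 lay above (Pes1, background 5.72%). None of the 38 passed the test (background 0.209%). Nop58, Nolc1 and Tcof1 (7.89% of the 38) were lower at an unadjusted p under 0.05 in all 11 of edgeR, DESeq2, limma-voom and the fits that left out 1 library, as were 1.19% of all tested genes. Without both shallow libraries the unadjusted p of Nolc1 was 0.0585. In the fit of the shallow libraries alone against shNC, 9 of the 38 were called higher and 8 lower, 44.7% against a background of 42.6%, and with shTbl1xr1 3 and 4 alone 0 were called (background 0.0478%), with 0 higher (background 6.73%) and 4 lower (Nop58, Nop10, Nop16 and Tcof1, background 4.62%) at an unadjusted p under 0.05.

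Ribosome biogenesis genes outside the 38 gave 0 calls by edgeR's quasi-likelihood test in each of 3 lists. At an unadjusted p under 0.05, 1 other RNA polymerase I gene was higher (background 7.9%) and 1 lower (background 3.71%). Of other small subunit factors 1 was higher and 3 lower, and of other large subunit factors 0 and 1, against the same backgrounds. Of 14 other subunits and factors of RNA polymerase I, 9 had positive and 5 negative log2 fold changes (median 0.15). Polr2f, a small subunit shared by the 3 nuclear polymerases, was at 61.2, 57.3, 20.5 and 15.8 CPM in shTbl1xr1 1 to 4, against 15.1 to 19.0 CPM in shNC (log2 fold change 1.18, SE 0.42, adjusted p = 0.382), so only the shallow libraries stood well above shNC. Polr2l, another shared subunit, had 0.91 (SE 0.42, adjusted p = 0.426). Ttf1, which ends RNA polymerase I transcription, was at 3.13, 3.59, 6.60 and 6.69 CPM in shTbl1xr1 1 to 4, against 7.97, 7.81, 8.46 and 7.46 CPM in shNC 1 to 4, with no overlap (-0.62, SE 0.26, adjusted p = 0.415). Of the 14 genes, 1 was thus separated downward (7.14%, background 3.37%) and 0 upward (background 3.88%). Taf1d, a subunit of the promoter selectivity factor, had -0.35 (SE 0.23, adjusted p = 0.532).

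Among 43 other small subunit factors 23 fold changes were positive and 20 negative (median 0.02). Of these genes, 2 were separated downward (Wdr3 and Krr1, 4.65%, background 3.37%) and 0 upward (background 3.88%). Tsr1, a late small subunit factor, was at 12.8, 9.53, 20.6 and 21.2 CPM in shTbl1xr1 1 to 4, against 21.1, 29.3, 29.7 and 24.0 CPM in shNC 1 to 4 (-0.68, SE 0.26, adjusted p = 0.405), and Krr1 had -0.36 (SE 0.14, adjusted p = 0.408). Rrp7a (0.45, SE 0.19, adjusted p = 0.414) and the helicase Dhx37 (0.28, SE 0.14, adjusted p = 0.446) had the smallest p above 0. Among 44 other large subunit factors 21 were positive and 23 negative (median -0.03). Rrs1, Ddx27 and Las1l were separated downward (6.82%, background 3.37%) and Ddx54 upward (background 3.88%). Las1l, an endonuclease that cuts an internal spacer of the rRNA precursor, was at 9.51, 11.7, 16.7 and 18.6 CPM in shTbl1xr1 1 to 4, against 18.7, 23.7, 20 and 20.9 CPM in shNC 1 to 4 (-0.54, SE 0.22, adjusted p = 0.412). Ddx27 had -0.29 (SE 0.15, adjusted p = 0.458), Wdr18 0.43 (SE 0.21, adjusted p = 0.441) and Rsl24d1 0.35 (SE 0.18, adjusted p = 0.444).

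Hepatocyte markers were abundant in every library, with Alb at 46700 ± 9010 CPM in shTbl1xr1 and 47700 ± 6980 CPM in shNC and the summed level of 8 markers at 55700 to 86600 CPM in shTbl1xr1 and 56300 to 72600 CPM in shNC. The summed level of 7 macrophage markers was 182, 198, 459 and 535 CPM in shTbl1xr1 1 to 4, against 420 to 692 CPM in shNC. For 7 endothelial markers it was 124, 109, 222 and 216 CPM in shTbl1xr1 1 to 4, against 192 to 220 CPM in shNC. For 8 stellate cell markers it was 123, 119, 493 and 268 CPM in shTbl1xr1 1 to 4, against 242 to 434 CPM in shNC. Summed levels were 2.29 to 3.84 CPM in shTbl1xr1 and 3.35 to 4.93 CPM in shNC for 8 lymphocyte markers, 37.1 to 236 and 31.7 to 118 CPM for 6 bile duct markers, and 2.38 to 17.3 and 3.81 to 9.57 CPM for 6 neutrophil markers. In each list no marker was at 0 in all libraries of a group. Of the markers, 3 of 8 for lymphocytes, 4 of 6 for neutrophils and all in the other lists were abundant enough to be tested. By edgeR's test 0 of them were called. At an unadjusted p under 0.05, 2 hepatocyte and 1 bile duct marker were higher (background 7.9%) and 2 stellate cell and 1 lymphocyte marker lower (background 3.71%). Fold changes were negative for 7 of 7 macrophage, 7 of 7 endothelial, 7 of 8 stellate cell and 2 of 3 lymphocyte markers, and positive for 6 of 8 hepatocyte, 4 of 6 bile duct and 4 of 4 neutrophil markers. All 4 shTbl1xr1 libraries lay above shNC for 2 hepatocyte markers and below it for 2 stellate cell and 1 lymphocyte marker. Over all tested genes, 3.88% were separated upward and 3.37% downward. The part of cell composition in the values above was not tested. Of the proliferation genes, Mki67 averaged 55.5 ± 1.21 CPM in shTbl1xr1 and 76.2 ± 24.2 CPM in shNC (adjusted p = 0.434), and Ccnd1 79.9 ± 25.6 CPM and 192 ± 34.2 CPM (log2 fold change -1.26, SE 0.26, adjusted p = 0.18).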

How the data were processed

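Bulk RNA-seq of mouse liver, in 4 shTbl1xr1 and 4 shNC libraries, was analysed from 1 deposited table per library. Per the file headers, the deposited tables give an expected count, the authors' estimate of fragments per gene, which need not be whole, beside length and effective length. The deposited TPM is that count scaled by effective length and library total, and the deposited FPKM, scaled in a similar way, was read but not used. STAR, RSEM, DESeq2 1.30.1 and mm10 are named in the submitters' processing notes. The sources used here give neither the annotation release nor the strand setting.

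Expected counts were rounded and tested in edgeR 4.0.16 (R 4.3.3) with TMM scaling, filterByExpr (13908 of 55401 genes kept), the robust quasi-likelihood F test without covariates and Benjamini-Hochberg adjustment over all tested genes, with a threshold of 0.05. The SE is the log2 fold change divided by the root of F. Levels are TMM-scaled CPM, and plotted log2 levels add 0.5. Tbl1xr1 was compared on log2(CPM + 1) over 70 arrangements. Alternatives used DESeq2 1.42.0, limma 3.58.1 (voom) and sva 3.50.0. The edgeR and DESeq2 steps were tested on simulated data. RSEM divides fragments that match several genes, and 31 of the 38 genes had whole expected counts in all 8 libraries (tolerance 0.005), while Nop56, Fbl, Npm1, Heatr1, Bysl, Pes1 and Ddx18 did not and are less certain. Exons of 14 of the 38 overlap a gene on the other strand.

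Symbols and positions came from GENCODE M21 on GRCm38, the assembly mm10 denotes (55141 identifiers had a symbol), and promoter windows from RefSeq on GRCm38.p6. The members, lists and tests were chosen with earlier results of these data known, so no count of members is independent support. Full values are given for the 8 members with the smallest p, the highest and lowest in TPM and those whose groups do not overlap, and from other lists for the 2 with the smallest p in each direction. Genes of those other lists whose groups do not overlap were named after their values were seen. Library totals ran from 10728566 to 36720852 counts, so low levels are less precise in shTbl1xr1 1 and 2.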

Additional observations from a re-analysis of the deposited data

Results flagged for a closer look

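Within a group of 4 libraries, 1 library stood far from the other 3 in 6 of the 78 groups examined (38 genes and Tbl1xr1, 2 groups each), where chance alone gives about 5% of groups. In shTbl1xr1 2, Nop58 was at 17.7 CPM, with the other 3 shTbl1xr1 libraries between 22 and 22.8. In the same library Ncl was at 124 CPM, with the others between 96.0 and 99.3, and Rrp12 was at 8.84 CPM, with the others between 12 and 12.4. Polr1b was at 16.0 CPM in shTbl1xr1 3, with the others between 13.3 and 13.7. In shNC 1, Utp20 was at 16.6 CPM, with the others between 18.9 and 19.0, and in shNC 2, Ddx10 was at 8.36 CPM, with the others between 7.90 and 7.97. Of the 6, 3 fell in shTbl1xr1 2, the library with the fewest counts. The other shTbl1xr1 libraries of Nop58 also lay below every shNC library.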

How the results depend on the processing

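Of 722 recomputed log2 fold changes of single genes, 653 kept direction and side of the threshold, 52 changed sign and 17 passed the threshold, all in the comparison of the shallow libraries with shNC. Polr1b, at 0.00 as reported and so without a sign to change, is counted among the 653. It was -0.27 under library size alone, -0.07 under upper quartile scaling, -0.08 with the shallow libraries only and 0.15 after removal of the length trend. Genes called by edgeR, 6 higher and 1 lower, became 3 higher under library size alone, 12 without the filter, 237 higher and 39 lower in DESeq2, 38 and 4 with 1 surrogate variable, 3073 and 3021 with the shallow libraries only, and 26 and 3 after removal of the length trend. The count lower was 0 in limma-voom (540 lower at an unadjusted p under 0.05) and with the deeper libraries only (677 lower). Without single libraries it was 0 to 28 higher and 0 to 6 lower. Of the 38 genes, 0 were called under all alternatives but the shallow libraries only, which called 9 higher and 8 lower. Their median of -0.08 became -0.36 under library size alone and -0.15 under upper quartile scaling, where the median of all genes was -0.27 and -0.07. Genes above every shNC library, 0 in the comparison as reported, were 2 with the deeper and 11 with the shallow libraries only, 1 after removal of the length trend, 1 without the filter on low counts and 0 to 4 without single libraries (4.55% to 9.55% of all tested genes). Those below, 6 as reported, were 10 with the deeper and 11 with the shallow libraries only, 8 under library size alone and 6 to 8 without single libraries (4.09% to 11.2% of all tested genes). The Tbl1xr1 difference was -2.83 to -2.02 without single libraries, with exact p of 0.0571 when an shNC library was left out. Nothing in the labels says that replicate numbers pair libraries. Same-numbered libraries correlated at 0.42, -0.10, 0.29 and 0.13 in their deviations from the group means, against 0, 0.42, 0.07 and 0.16 for the best other number, so not every number correlated best with itself, and with the replicate block 4 genes were called higher and 1 lower, 0 of them among the 38.

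Signs turned as follows. Under library size alone: Gar1 -0.16, Npm1 -0.23, Bop1 -0.14, Pes1 -0.17, Wdr12 -0.08, Rrp1 -0.19, Rrp9 -0.08, Nop2 -0.18, Nop16 -0.26, Polr1c -0.14, Rrn3 -0.13 and Bysl -0.06. With 1 surrogate variable: Nop10 -0.19, Gar1 -0.10, Npm1 -0.09, Wdr12 -0.01, Rrp9 -0.06, Utp20 0.10, Nop16 -0.32, Polr1a 0.01, Polr1c -0.05 and Bysl -0.02. With the deeper libraries only: Nop10 -0.37, Gar1 -0.14, Npm1 -0.13, Wdr12 -0.07, Rrp1 -0.03, Rrp9 -0.16, Rrp12 0.01, Utp20 0.24, Nop16 -0.43, Polr1a 0.09, Polr1c -0.11 and Bysl -0.09. With the shallow libraries only, Nop14 was 0.01. After removal of the length trend: Gar1 -0.23, Ncl 0.04, Npm1 -0.07, Rrp12 0.10, Nop16 -0.08, Nop14 0.04, Polr1c -0.04 and Heatr1 0.09. Without single libraries the ranges crossed 0 for Dkc1 (-0.11 to 0.04), Gar1 (-0.10 to 0.32), Nop16 (-0.04 to 0.33), Nop14 (-0.07 to 0.03), Gnl2 (-0.13 to 0.01) and Rrp12 (-0.12 to 0.02). The cause was not tested. Depth limits low genes most in the shallow libraries.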

Other observations

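Of 14 genes of the nuclear RNA exosome, which trims rRNA precursors, 13 were tested (Exosc6 was not). By edgeR's quasi-likelihood test 0 were called, and at an unadjusted p under 0.05, 1 was higher (background 7.9%) and 0 were lower (background 3.71%). There were 6 positive and 7 negative log2 fold changes, with a median of -0.03. The smallest p fell to Exosc5, at 40.7, 43.5, 21.9 and 19.6 CPM in shTbl1xr1 1 to 4, against 14.4 to 21.1 CPM in shNC (log2 fold change 0.74, SE 0.28, adjusted p = 0.405). Exosc4, another ring subunit, had 0.69 (SE 0.34, adjusted p = 0.434). As for Nhp2 and Fbl, the shallow libraries held the high values. Below 0 stood Mphosph6 (-0.47, SE 0.29, adjusted p = 0.503) and the helicase Mtrex (-0.24, SE 0.18, adjusted p = 0.561).

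In the Myc network, 12 genes of the transcription factor, its partners and its antagonists, 0 were called by the same test. At an unadjusted p under 0.05, 1 was higher (background 7.9%) and 0 were lower (background 3.71%). Of the log2 fold changes 9 were positive and 3 negative, with a median of 0.15. Myc itself was at 8.01, 4.28, 10.2 and 39.4 CPM in shTbl1xr1 1 to 4, against 4.52, 5.68, 6.94 and 4.39 CPM in shNC 1 to 4 (log2 fold change 1.56, SE 0.59, adjusted p = 0.405). The groups overlapped, and 1 library, shTbl1xr1 4, held the highest value by a wide margin. The median log2 difference of the 38 ribosome biogenesis genes from shNC was -0.12 in that library and also in shTbl1xr1 3. A link between the Myc level and these genes was not tested. The antagonist Mxi1 stood at 0.45 on the log2 scale (SE 0.20, adjusted p = 0.426), and Mlxip and Mga had -0.28 (SE 0.37, adjusted p = 0.749) and -0.23 (SE 0.36, adjusted p = 0.792).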
